A study of Gallus gallus with 5 samples.

Results

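Regenerating feather follicles of the chicken wing were profiled by RNA sequencing, and the 10 genes described here encode ligands of the bone morphogenetic protein (BMP) and activin branches of the TGF-beta family, with the secreted proteins that hold those ligands back. They were chosen by name as BMP2, BMP4, BMP7, NOG, CHRD, GREM1, SOSTDC1, FST, INHBA and INHBB. All 10 were found, each as 1 entry, among the 17108 genes of the deposited table. Levels are in FPKM, that is, fragments per length of transcript and per mapped fragments of a library. Genes were tested if their mean over the libraries reached 1 FPKM, which 11031 genes did, all 10 members among them. NOG passed narrowly, with a mean of 1.51 FPKM.

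There were 5 libraries, each made from 5 pooled follicles of flight feathers that regrew after plucking. One library carried the label Wnt5a overexpression, one lnc7831 knockdown and one lnc3500 knockdown, the last pair being named for long non-coding RNAs, and 2 libraries were wild type. Lentiviral vectors carried the treatments, pLVX-Zsgreen for overexpression and pLL3.7 for knockdown, and no empty-vector group is named. The age and number of the birds are not given, and it is not stated if the wild-type libraries are from different birds. Spread between these 2 libraries, which may be technical, is all that the p-values rest on. It was taken partly from the gene itself and partly from the tested genes as a whole. Each treated group has n = 1. Titles of the wild-type libraries alone bear an unexplained tag, T4, whose meaning cannot be told apart from the treatment.

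BMP ligands bind paired serine/threonine kinase receptors, which phosphorylate SMAD proteins that then enter the nucleus and switch target genes such as the ID family. Activins, dimers of the inhibin beta subunits encoded by INHBA and INHBB, use related receptors and a separate pair of SMAD proteins. Noggin, chordin, gremlin and follistatin bind ligands outside the cell and keep them from their receptors. In the chicken, BMP signals restrain feather bud formation, and the balance of BMP4 and noggin shapes how the feather filament branches into barbs.

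WNT5A, a WNT ligand and the gene named in the first treatment, had 75.7 FPKM in the library with its name (hereafter Wnt5a-labelled), 162 with lnc7831 knockdown and 43.8 with lnc3500 knockdown, against 29.7 and 64.3 in wild type. The level in the Wnt5a-labelled library was thus close to the higher wild type as deposited, before the shift between libraries given next is allowed for. Every direction below belongs to the library as labelled. As deposited, the median tested gene was higher than wild type by 0.54 (log2) in the Wnt5a-labelled library, 0.64 in lnc7831 knockdown and 0.56 in lnc3500 knockdown. Differences are therefore given after median centring, in which a common factor per library sets the median gene level between libraries. They are on the scale log2(centred FPKM + 1), which understates the change of low genes. After the same centring, WNT5A in the Wnt5a-labelled library lay between the wild types, so its overexpression is not visible at the RNA level there. The source name is dermal papilla, yet epidermal markers were abundant. Their 16 tested members summed to 6339 to 8282 centred FPKM in the treated libraries, against 2870 and 4366 in wild type. The keratin gene KRT14 weighs heavily in these sums, with 3822 to 4401 FPKM as deposited in treated libraries against 621 and 1743 in wild type. The 11 dermal mesenchyme markers were abundant too, at 4521 to 6852 centred FPKM in the treated libraries against 4358 and 3895 in wild type. The collagen gene COL1A2 weighs heavily in these sums, with 2348 to 3996 FPKM as deposited in treated libraries against 1213 and 1003 in wild type. The mesenchyme sum exceeded the epidermal sum in lnc7831 knockdown and in wild-type library 1. Of 15 mesenchyme markers listed, 11 had an entry, so which sum is larger depends on the genes present and is no measure of tissue content. The 14 dermal papilla markers summed to 285 to 424 centred FPKM against 280 and 286. In such mixed tissue, fewer cells of a type and less RNA per cell cannot be told apart.

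SOSTDC1 (ENSGALG00000010797), which encodes an extracellular inhibitor of BMP and WNT signalling, had the highest level of the 10 genes in all 5 libraries. It had 164 FPKM in the Wnt5a-labelled library, 650 in lnc7831 knockdown and 197 in lnc3500 knockdown, against 447 and 283 in wild type. These levels placed it between the 94.6th and the 98.5th percentile of the tested genes. BMP4 was second in 4 of the 5 libraries, and FST, which encodes follistatin, was second in lnc7831 knockdown, with 145 FPKM against 135 for BMP4. BMP7, GREM1 and CHRD came next in most libraries, and their order differed between the wild-type libraries. BMP2 was seventh in every library. NOG was the lowest in 4 libraries and INHBB in the remaining one, lnc3500 knockdown.

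**Figure D1:**
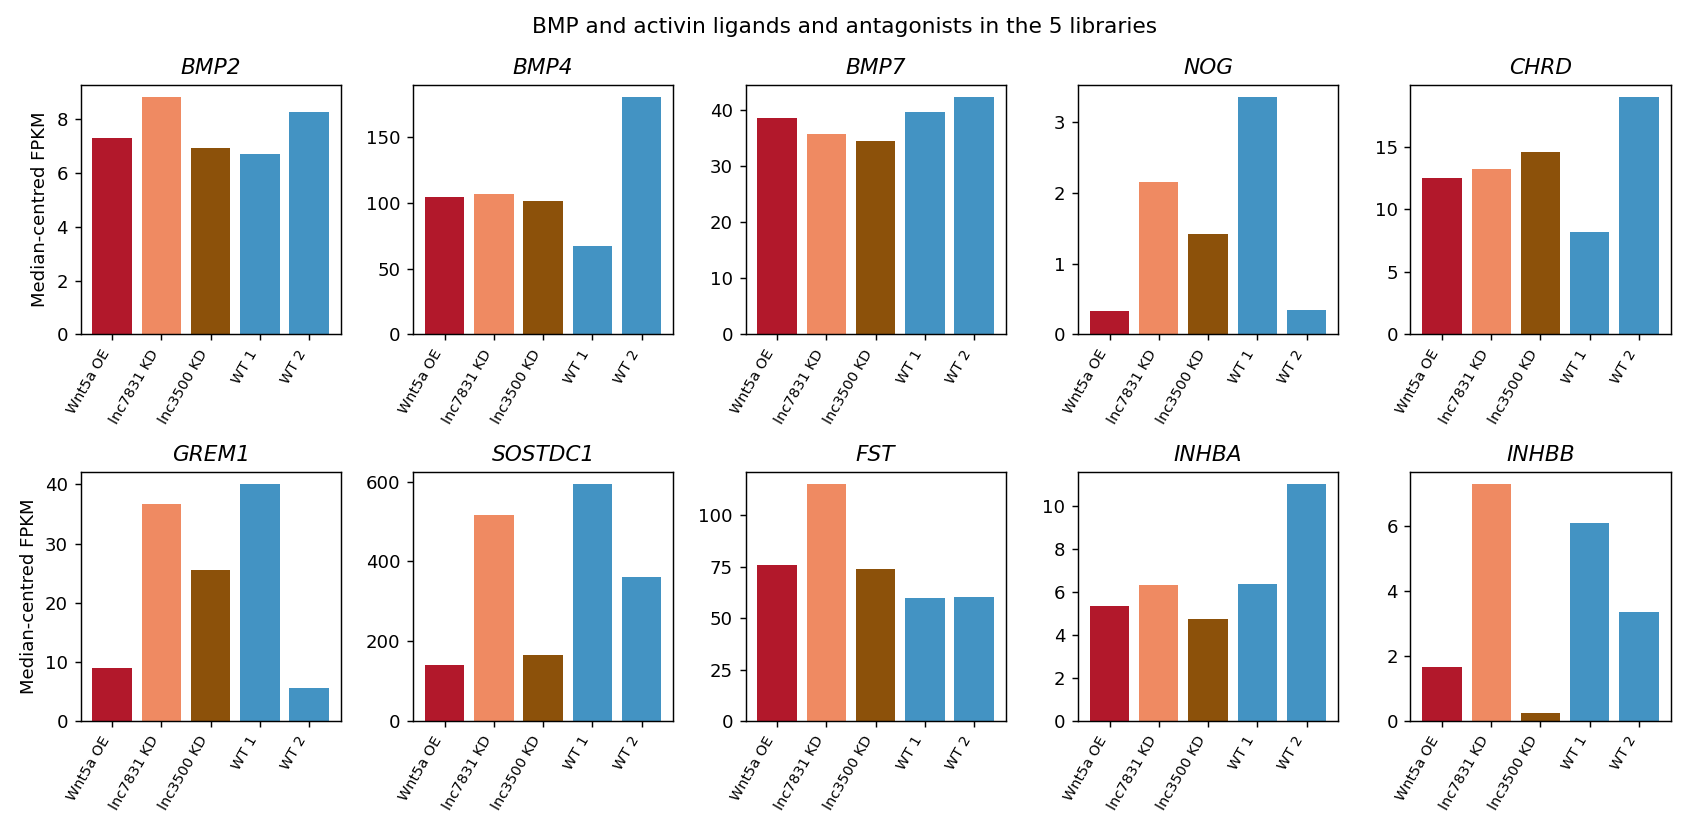
Median-centred FPKM (y axes, linear and starting at 0) of each gene in the 5 single libraries, with treated libraries in red to brown and the 2 wild-type libraries (WT) in blue; OE is overexpression and KD knockdown. The wild-type bars are nearly level for FST and far apart for GREM1, NOG, BMP4 and CHRD, and INHBB is lowest in lnc3500 knockdown.

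The wild-type libraries differed strongly from each other in some of these genes. After centring, 4 of the 10 genes were at least 2-fold apart between them, against 12.1% of all tested genes. GREM1 was at 5.64 in wild-type library 2 and at 40.2 in library 1 (centred FPKM), a log2 difference of -2.63. NOG, with 0.274 and 2.52 FPKM as deposited, differed by -1.69 in the same direction. BMP4 and CHRD differed the other way, by 1.41 and 1.12. FST was the closest, with 60.2 and 59.6 centred FPKM, and BMP7 differed by 0.09. For GREM1, NOG, BMP4 and CHRD, no treated library lay at least 2-fold beyond both wild types. Wild types so far apart make that mark hard to reach, so its absence says little about these genes.

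The first question was how each treatment set these genes apart from wild type. None of the 10 passed limma at an adjusted p below 0.05 in any of the 3 treated libraries, and every adjusted p was 1. Over all genes limma called 0.00907% in the Wnt5a-labelled library, 0.0363% in lnc7831 knockdown and 0.00% in lnc3500 knockdown. With p below 0.05 before adjustment it took 1, 0 and 2 of the 10 genes in the same order of libraries, against 4.01%, 3.04% and 3.08% of all genes. By size, 1 of 10 lay at least 2-fold below both wild types in the Wnt5a-labelled library (background 1.74%) and 2 of 10 in lnc3500 knockdown (background 1.64%), while 0 of 10 did in lnc7831 knockdown (background 1.32%). In each of the 3 libraries, 0 of 10 lay that far above both (background 2.18%, 1.64% and 1.43%). At any distance, 5, 2 and 4 of the 10 lay below both wild types (background 32.8%, 32.3% and 32.2%), and 1, 3 and 1 above both (background 31.8%, 31.0% and 31.9%). The median difference of the 10 genes was -0.33, 0.19 and -0.11 in that order of libraries, beside medians of all genes within 0.01 of 0.

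**Figure D2:**
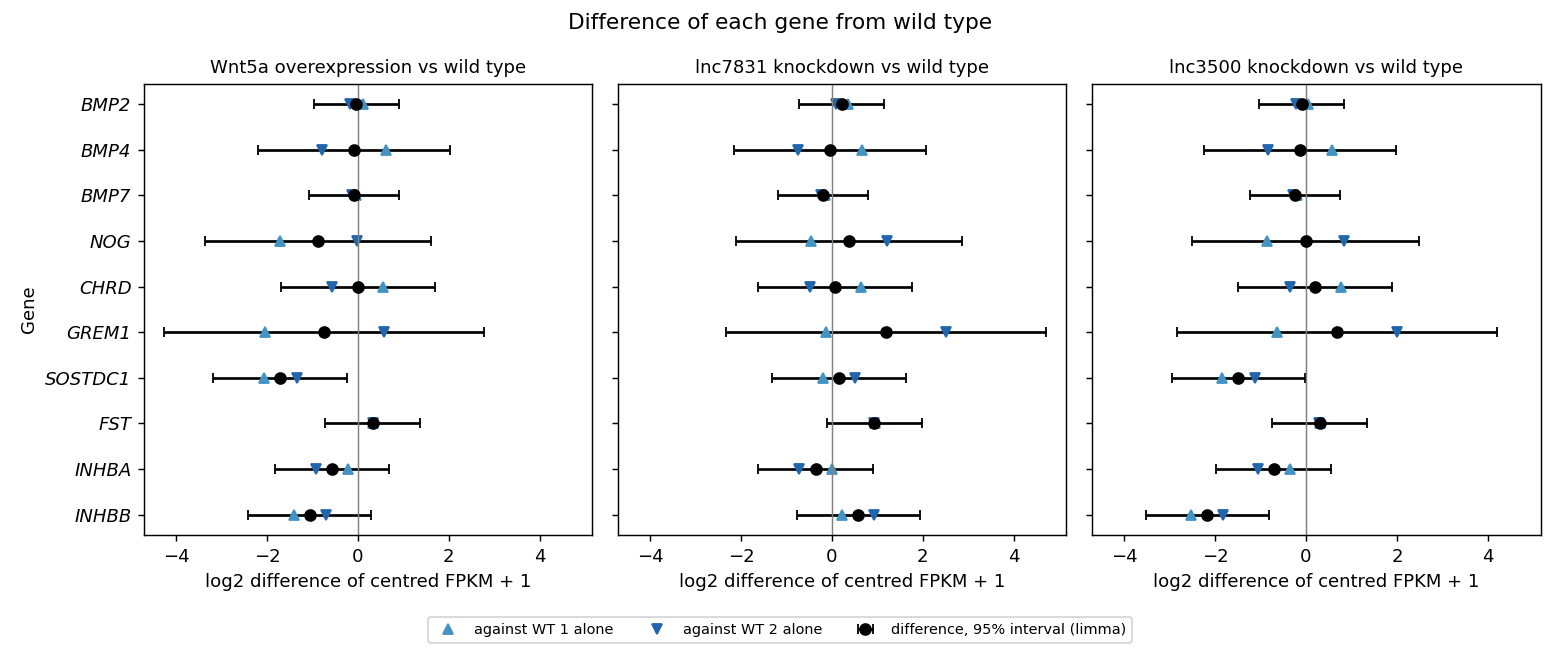
Log2 difference of each gene from wild type on the centred FPKM + 1 scale (x axis) in the 3 treated libraries, with the 95% interval from limma as bars and the difference from each wild-type library alone as triangles. The intervals of SOSTDC1 in the Wnt5a-labelled and lnc3500 libraries and of INHBB in lnc3500 knockdown lie below 0, and the triangles of GREM1 lie 2.63 apart.

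Among the BMP ligands, levels after centring lay close to wild type or inside its range. BMP4 (ENSGALG00000012429), the most abundant of the 3, made up 69.6% of their summed FPKM in the Wnt5a-labelled library, 70.7% in lnc7831 knockdown and 71.0% in lnc3500 knockdown, against 59.3% and 78.1% in wild type. It had 122, 135 and 121 FPKM in the treated libraries in that order, against 50.8 and 142 in wild type. All 3 treated values lay between the wild-type values on either scale. With lnc3500 knockdown the 95% interval of its difference ran from -2.23 to 1.98 (log2), so a difference of that size could not be resolved. BMP7 (ENSGALG00000007668), a ligand that also pairs with BMP2 or BMP4 in heterodimers, had 44.9, 45.0 and 41.2 FPKM in the treated libraries, against 29.8 and 33.2 in wild type. After centring it lay below both wild types in all 3, by -0.09 (SE 0.35), -0.20 and -0.24, whereas as deposited it lay above both. BMP2 (ENSGALG00000008830), which inhibits feather bud growth in chick skin, had 8.51, 11.1 and 8.27 FPKM against 5.04 and 6.50. Its centred differences were -0.03, 0.22 and -0.09 (SE 0.33 each), and its sign in the Wnt5a-labelled and lnc3500 libraries was positive as deposited.

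Among the BMP antagonists, SOSTDC1 lay below both wild types in 2 of the 3 treated libraries. Its centred level was 141 in the Wnt5a-labelled library and 165 in lnc3500 knockdown, against 595 and 361 in wild type, and 516 in lnc7831 knockdown lay between the wild types. The difference was -1.71 (SE 0.51, 95% interval -3.18 to -0.24, unadjusted p = 0.0326 in limma) in the Wnt5a-labelled library. In lnc3500 knockdown it was -1.49 (SE 0.51, -2.95 to -0.02, unadjusted p = 0.0484 in limma), and in lnc7831 knockdown 0.16. Both libraries with low SOSTDC1 lay below either wild type as deposited too, but then by less than 2-fold of the closer one.

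GREM1 (ENSGALG00000009724), which encodes gremlin, had 10.4 FPKM in the Wnt5a-labelled library, 46.3 in lnc7831 knockdown and 30.4 in lnc3500 knockdown, against 30.1 and 4.43 in wild type. After centring all 3 treated values lay between the wild types. The differences were -0.73, 1.19 and 0.68, each with an SE of 1.23. Taken against wild-type library 2 alone they were 0.58, 2.51 and 1.996, and against library 1 alone -2.05, -0.12 and -0.64, so the direction in each treated library rested on which wild type was used.

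NOG (ENSGALG00000003114), the noggin gene, was low throughout, with 0.379, 2.71 and 1.68 FPKM in the treated libraries in the same order, against 2.52 and 0.274 in wild type. Its differences of -0.87, 0.38 and -0.0073 (SE 0.87 each) were smaller than the gap between the wild types. With a pseudocount of 0.1 in place of 1 they were -1.55, 0.85 and 0.28. CHRD (ENSGALG00000026983), the chordin gene, had 14.6, 16.7 and 17.4 FPKM against 6.15 and 14.9. After centring all 3 treated values lay between the wild types, and the largest difference was 0.20 (SE 0.59), in lnc3500 knockdown.

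Follistatin binds activins and blocks them, and its gene FST (ENSGALG00000014908) was described with the activin subunits. It had 88.1 FPKM in the Wnt5a-labelled library, 145 in lnc7831 knockdown and 88.2 in lnc3500 knockdown, against 44.7 and 47.2 in wild type. It was the 1 gene of the 10 that lay above both wild types in all 3 treated libraries after centring, against 15.1% of tested genes. The differences were 0.33 in the Wnt5a-labelled library, 0.93 (SE 0.36, 95% interval -0.11 to 1.98, unadjusted p = 0.0670 in limma) in lnc7831 knockdown and 0.30 in lnc3500 knockdown. Before centring, FST with lnc7831 knockdown exceeded both wild types at least 2-fold, as did 10.5% of tested genes. INHBA (ENSGALG00000012327), which encodes a subunit of activin A, had 6.24, 7.98 and 5.67 FPKM in the treated libraries, against 4.78 and 8.64 in wild type. After centring it lay below both wild types in all 3 treated libraries, as did BMP7, so 2 of 10 genes did so against 16.2% of tested genes. For INHBA the differences were -0.57, -0.36 and -0.71 (SE 0.44 each), and as deposited all 3 values lay between the wild types.

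INHBB (ENSGALG00000028770), the other activin subunit, spanned the widest log2 range of the 10 genes. It had 1.95 FPKM in the Wnt5a-labelled library, 9.21 in lnc7831 knockdown and 0.282 in lnc3500 knockdown, against 4.58 and 2.63 in wild type. The lnc3500 library was the lowest of the 5 and the lnc7831 library the highest. In lnc3500 knockdown the centred level was 0.236 against a wild-type mean of 4.73, and the difference was -2.17 (SE 0.47, 95% interval -3.52 to -0.82, unadjusted p = 0.0121 in limma). With a pseudocount of 0.1 the same difference was -3.78, since the value lies below 1 FPKM, and how many reads stand behind it is unknown. The differences were -1.06 (SE 0.47) in the Wnt5a-labelled library and 0.58 in lnc7831 knockdown.

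The average of the 3 treated libraries was also set against wild type in the same fit. None of the 10 genes passed limma at an adjusted p below 0.05 (0.00% of all genes did), none at an unadjusted p below 0.05 (5.38% of all genes did), and the adjusted p ran from 0.922 to 0.988. The average difference was -1.01 (SE 0.38) for SOSTDC1, -0.88 (SE 0.35) for INHBB, -0.55 (SE 0.33) for INHBA and 0.52 (SE 0.27) for FST. Their order depended on the setting. With a pseudocount of 0.1 INHBB was at -1.50 and SOSTDC1 at -1.02, and as deposited FST was at 1.16, GREM1 at 0.98 and SOSTDC1 at -0.36. The average for SOSTDC1 and INHBB joins libraries on opposite sides of the wild-type mean, since both genes lay above it in lnc7831 knockdown.

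The treated libraries were then compared with each other. In lnc7831 knockdown, 4 of the 10 genes were at least 2-fold higher than in the Wnt5a-labelled library (background 3.28%) and 0 were at least 2-fold lower (background 2.86%). They were GREM1 (1.93, SE 1.42), SOSTDC1 (1.86, SE 0.59), INHBB (1.63, SE 0.54) and NOG (1.25). The unadjusted p in limma was 0.0384 for SOSTDC1 and 0.0441 for INHBB. Set against lnc3500 knockdown, lnc7831 knockdown had 2 of 10 genes at least 2-fold higher (background 3.26%), INHBB by 2.75 (SE 0.54, unadjusted p = 0.00891 in limma) and SOSTDC1 by 1.64 (SE 0.59), with 0 at least 2-fold lower (background 2.72%). In lnc3500 knockdown, GREM1 was at least 2-fold higher than in the Wnt5a-labelled library, by 1.42 (background 0.988%), and INHBB at least 2-fold lower, by -1.11 (background 0.752%). The low genes depended on the pseudocount: at 0.1 that INHBB difference was -2.40, NOG was higher by 1.83 where it had been 0.86, INHBB in lnc7831 against lnc3500 knockdown was 4.46, and NOG in lnc7831 knockdown against the Wnt5a-labelled library was 2.40. Limma called none of the 10 genes in these 3 comparisons, each adjusted p being 1, and called 0.0453%, 0.0272% and 0.00% of all genes in the order given. At an unadjusted p below 0.05 it took 2, 1 and 0 of the 10 genes, against 1.95%, 1.77% and 0.471% of all genes. Each pair compares 1 library with 1 other and shares libraries with the comparisons above.

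Ratios of FPKM within a library do not depend on how the libraries are scaled against each other. The summed BMP antagonists NOG, CHRD, GREM1 and SOSTDC1 stood to the summed ligands BMP2, BMP4 and BMP7 at 1.08 in the Wnt5a-labelled library, 3.74 in lnc7831 knockdown and 1.44 in lnc3500 knockdown, against 5.67 and 1.67 in wild type. SOSTDC1 supplied 79.9% to 90.8% of the antagonist sum in treated libraries and 92.0% and 93.5% in wild type. Without it the ratio was 0.145, 0.344 and 0.291 in the treated libraries, all between the wild-type values of 0.453 and 0.108. FST over the sum of INHBA and INHBB was 10.8, 8.46 and 14.8 in the treated libraries, against 4.78 and 4.19 in wild type. Every treated value exceeded both wild types. Among single tested genes after centring 15.1% did so, which is not a rate for ratios. The ratio reuses FST and INHBA, which lay above and below both wild types after centring, and no test of it was made. INHBA over INHBB was 3.20, 0.867 and 20.1, against 1.04 and 3.29. CHRD over BMP4 lay between 0.105 and 0.144 in all 5 libraries, with 0.120, 0.124 and 0.144 in the treated libraries and 0.121 and 0.105 in wild type.

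**Figure D3:**
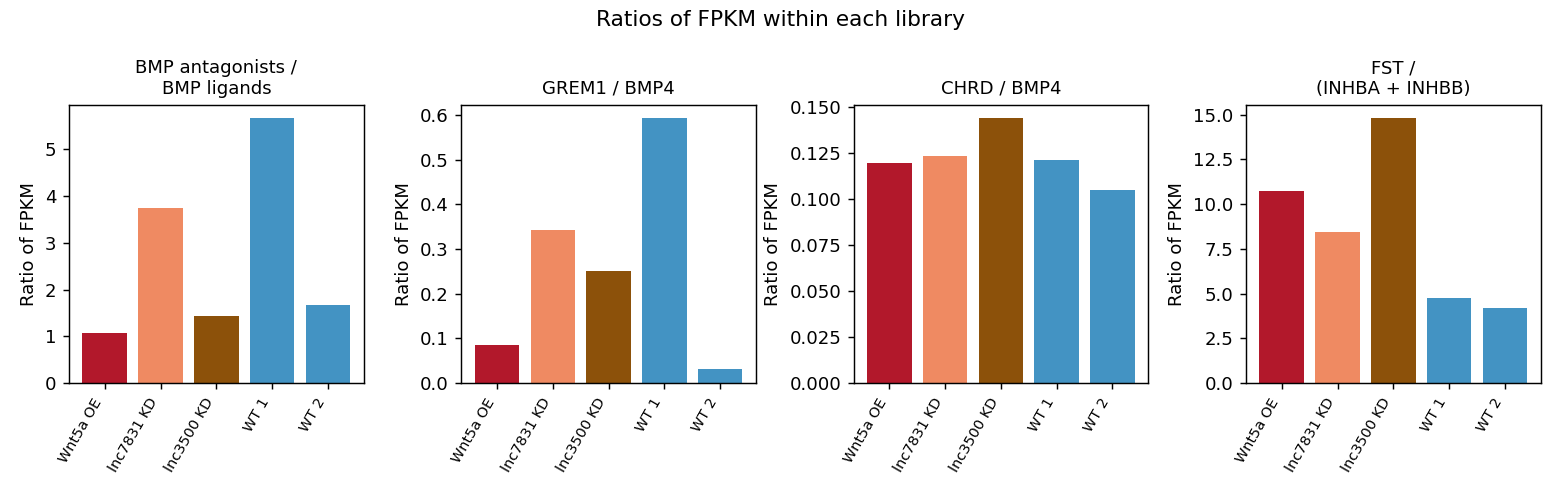
Ratios of deposited FPKM within each of the 5 libraries (y axes, linear and starting at 0); the BMP antagonists are NOG, CHRD, GREM1 and SOSTDC1 and the ligands BMP2, BMP4 and BMP7. FST over the activin subunits is higher in every treated library (8.46 to 14.8) than in wild type (4.78 and 4.19), and CHRD over BMP4 stays between 0.105 and 0.144.

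Likeness of profiles was measured as the root mean square (RMS) difference of centred log2 values over the 5 libraries, after each gene's own mean was subtracted, and is a description of 5 libraries that share their scaling. Among the 45 pairs of the 10 genes, BMP4 and CHRD were the closest, at 0.15. Of 9807 other named genes above 0 in every library, 29 were nearer to BMP4 than CHRD was, or 0.296%, and the median RMS difference from BMP4 was 0.51. Seen from CHRD, 125 genes (1.27%) were nearer than BMP4. The likeness rests largely on the gap between the wild types, at 67.7 and 181 centred FPKM for BMP4 and 8.19 and 19.0 for CHRD. In the treated libraries both genes varied little, from 101 to 107 for BMP4 and from 12.5 to 14.6 for CHRD. It thus says little about a shared response to the treatments. BMP2 and BMP7 were the next closest pair, at 0.16, but both were nearly flat, and 12.7% of the other genes were nearer to BMP2.

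For the 3 genes with the widest range, INHBB, GREM1 and SOSTDC1, the nearest genes were listed. The nearest to GREM1 was SCG5, at 0.17, which encodes a secretory granule protein, followed by STMN4 (0.36) and LUZP2 (0.43). SCG5 had 1.47 FPKM in the Wnt5a-labelled library, 9.34 in lnc7831 knockdown and 8.16 in lnc3500 knockdown, against 5.94 and 0.595 in wild type. GREM1 over SCG5, as deposited, was 7.10, 4.96 and 3.73 in the treated libraries, against 5.08 and 7.43 in wild type. The pseudocount of 1 narrows the range of SCG5 at its lowest values. In settings added after seeing the data, the RMS difference was 0.32 with a pseudocount of 0.1, with 0 genes nearer, and 0.37 with none, with 3 genes nearer. In the RefSeq table of assembly GRCg7b, SCG5 is the next protein-coding gene to GREM1, without overlap. The gene on the other side, FMN1, was at 0.92 and ranked 914th of the 9807 genes. Of 20 flanking genes of the 10 members 10 were tested, and SCG5 was the 1 that ranked first for its member. Whether counting used strand is not given, and reads running from one gene into the other were not tested.

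The nearest genes to SOSTDC1 were one listed as Worthington (0.19), the immediate early transcription factor EGR1 (0.20) and the complement gene C7 (0.24). EGR1 had 40.8 FPKM in the Wnt5a-labelled library, 159 in lnc7831 knockdown and 52.3 in lnc3500 knockdown, against 84.7 and 55.2 in wild type. INHBB had no close match. Its nearest gene was the fibroblast growth factor receptor FGFR3, at 0.42, with 24.0, 67.9 and 17.6 FPKM in the treated libraries against 27.3 and 24.2 in wild type. The next were GGACT (0.43) and Worthington (0.45).

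**Figure D4:**
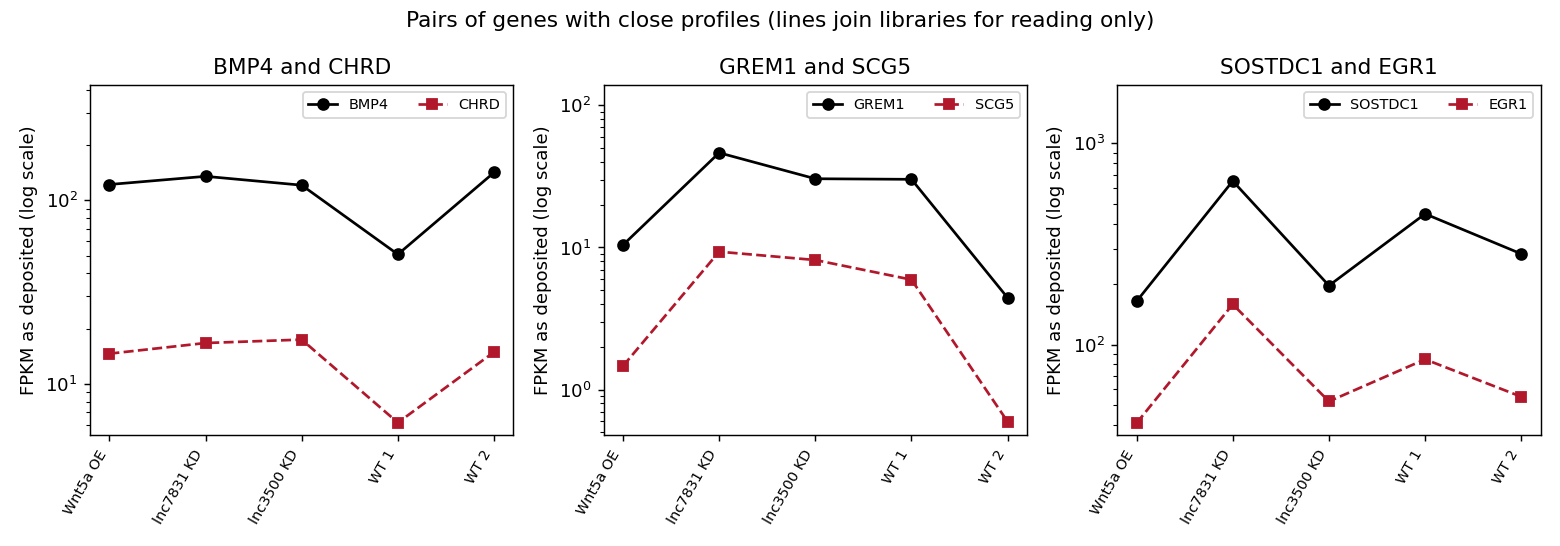
Deposited FPKM on a log axis for BMP4 and CHRD, GREM1 and SCG5, and SOSTDC1 and EGR1 in the 5 libraries; lines join the libraries for reading only and imply no order. On the centred log2(FPKM + 1) scale, which the axis does not use, the RMS differences are 0.15, 0.17 and 0.20; on the plotted scale GREM1 over SCG5 ranges from 3.73 to 7.43.

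The rest of the pathway was followed in 6 lists, and limma called 0 members of any list in any of the 3 treated libraries at an adjusted p below 0.05. Of the 7 tested genes of the receptor list, which includes BAMBI, 0 lay at least 2-fold beyond both wild types in any treated library. In the Wnt5a-labelled, lnc7831 and lnc3500 libraries the background was 2.18%, 1.64% and 1.43% above both wild types. Below both it was 1.74%, 1.32% and 1.64%, so 0 is unremarkable for so few genes. The receptors had median differences of -0.19 in the Wnt5a-labelled library, -0.06 in lnc7831 knockdown and -0.07 in lnc3500 knockdown. ACVR1, a BMP receptor kinase and the most abundant of them, had 71.0, 77.7 and 67.1 FPKM against 47.4 and 43.3, or 0.05, 0.06 and -0.07 after centring. BMPR1A, the main BMP kinase of skin epithelium in mouse, had 11.5, 11.9 and 10.9 FPKM against 9.51 and 7.97. Of 11 tested SMAD genes and regulators, 0 lay at least 2-fold beyond both wild types either, against the same background. The lists overlap, since BAMBI and SMAD6 are counted here and again among the BMP target genes. The receptor genes ACVR1B and ACVRL1 are listed at 0 in every library, as is SMAD7, so none of them was tested.

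Of 13 tested BMP target genes, 1 exceeded both wild types at least 2-fold, MSX1 in lnc7831 knockdown (background 1.64%). In the Wnt5a-labelled, lnc7831 and lnc3500 libraries 0 lay at least 2-fold below both (background 1.74%, 1.32% and 1.64%). MSX1, a homeobox factor of skin and limb mesenchyme, had 30.8 FPKM there against 7.03 and 6.57, a difference of 1.37 (SE 0.31). MSX2, its paralog, had 26.6 FPKM in lnc7831 knockdown against 30.3 and 38.0, a difference of -1.03, and 0.58 and 0.39 in the Wnt5a-labelled and lnc3500 libraries. The ID genes, direct BMP targets that block basic helix-loop-helix factors, differed in sign after centring. Id3 was at 0.89, 0.24 and 0.80 in the Wnt5a-labelled, lnc7831 and lnc3500 libraries, whereas Id1 was at -0.62, -0.07 and -0.08 and ID2 at -0.43, 0.22 and -0.26. Id3 had 599, 414 and 578 FPKM against 211 and 214 in wild type, with treated values above both wild types on either scale, and Id1 had 241, 380 and 359 FPKM against 178 and 333. MSX2, the ID genes, the receptors, FURIN, the other ligand genes and the cell type markers were chosen for mention after their values were seen.

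Of 16 other tested extracellular modulators, 1 lay at least 2-fold below both wild types in the Wnt5a-labelled library (background 1.74%) and 0 in lnc7831 and lnc3500 knockdown (background 1.32% and 1.64%). It was HTRA1, a secreted protease that acts on TGF-beta family signals, with 490 FPKM against 681 and 694 and a difference of -1.09 (SE 0.41). In lnc7831 and lnc3500 knockdown HTRA1 had 565 and 948 FPKM as deposited. After centring both lay below the wild-type mean, by -0.999 and -0.17, and neither reached 2-fold below both wild types. FURIN, which cuts the precursors of BMP and activin ligands, had 37.7, 39.3 and 37.8 FPKM in the treated libraries against 7.996 and 16.4 in wild type. Its differences were 1.06, 1.01 and 1.03, although none reached 2-fold against both wild types. Of the 4 other ligand genes tested, TGFB3 was the most abundant, with 222, 223 and 199 FPKM against 94.7 and 128, and differences of 0.41, 0.30 and 0.22. It was the only one of the 4 with positive differences. BMP6 was at -0.85, -0.45 and -0.55, TGFB2 at -0.51, -0.51 and -0.12, and GDF10 at -0.70, -0.04 and -0.92. The medians of the 4 genes were -0.61, -0.24 and -0.34.

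**Figure D5:**
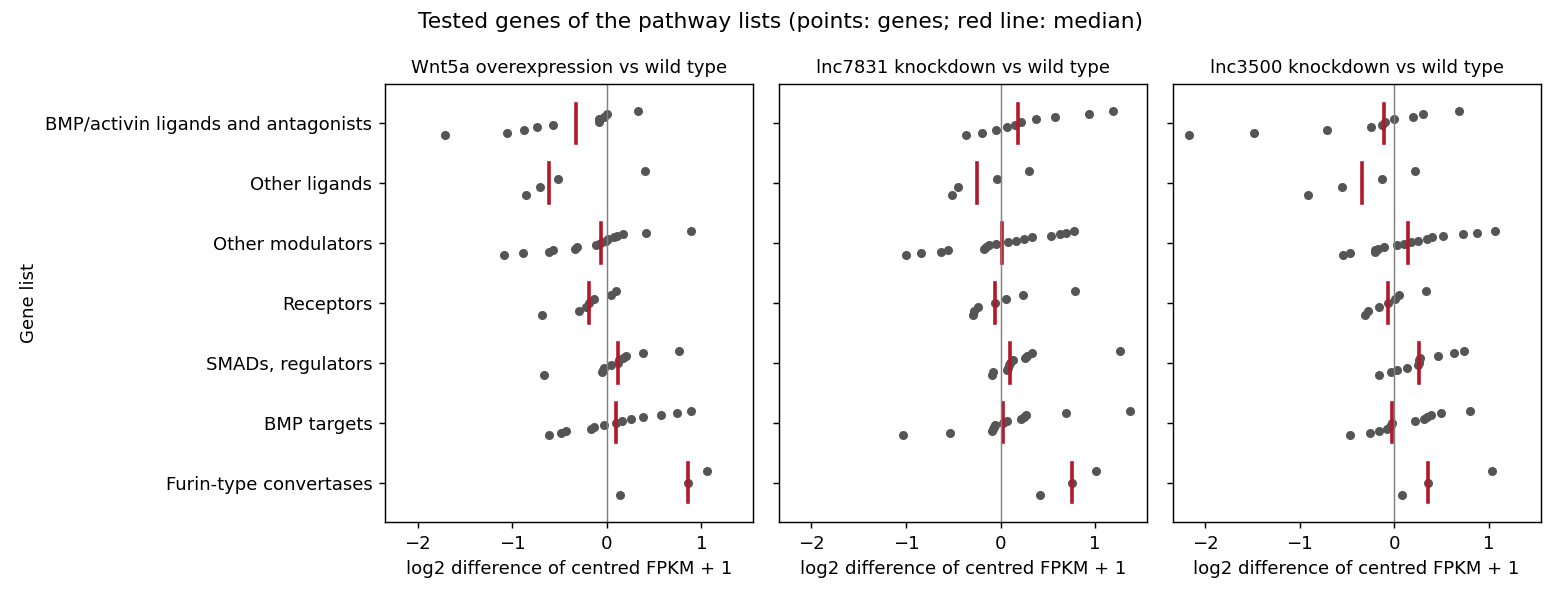
Log2 difference from wild type on the centred FPKM + 1 scale (x axis) for the tested genes of each pathway list in the 3 treated libraries; points are genes and red lines list medians. Most points lie within 1 of 0, and the lowest in the top row is SOSTDC1 in the Wnt5a-labelled library and INHBB in lnc3500 knockdown.

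Markers of the cell types in the follicle differed between libraries beside these genes. Of 16 epidermal markers 9, 2 and 5 exceeded both wild types at least 2-fold in the Wnt5a-labelled, lnc7831 and lnc3500 libraries (background 2.18%, 1.64% and 1.43%). KRT5 and KRT75 of that list are listed at 0 in every library. The epidermal medians were 1.43, 0.67 and 1.16, so the 2 libraries with low SOSTDC1 had the higher ones. The 11 dermal mesenchyme markers had medians of 0.03, 0.49 and 0.13, and the 14 dermal papilla markers -0.17, 0.40 and -0.07, each highest in lnc7831 knockdown. After centring, every one of the 10 genes except BMP7 and CHRD was also highest there among the treated libraries. For BMP4 the margin was small, at 107 centred FPKM against 105 and 101. The share of all tested genes highest in lnc7831 knockdown was not counted, so no pattern of these genes can be read from it. The 11 leukocyte markers summed to 98.0 to 166 centred FPKM in treated libraries, against 197 and 225 in wild type. Their medians were -0.83, -0.45 and -1.37 in the Wnt5a-labelled, lnc7831 and lnc3500 libraries. In that order 4, 1 and 6 lay at least 2-fold below both wild types (background 1.74%, 1.32% and 1.64%). Above the wild-type mean lay 2, 3 and 1 of the 11, among them MARCO at 0.60, 0.77 and 0.26. The 5 tested melanocyte markers had medians of -1.004, 0.63 and -0.15, and the list summed to 29.9, 48.2 and 31.2 centred FPKM, against 29.0 and 39.6 in wild type, with PMEL listed at 0 in every library. One of them, the pigment enzyme gene TYRP1, exceeded both wild types at least 2-fold in lnc7831 knockdown, with 0.282, 14.1 and 1.49 FPKM in the treated libraries against 3.01 and 0.189. The melanocyte median of 0.63 in lnc7831 knockdown was the value of TYR. That gene had 0.067, 2.94 and 0.222 FPKM in the treated libraries against 1.58 and 0.386. Its level in lnc7831 knockdown carried TYR past the filter on mean FPKM, so this median is no independent sign of a rise there. HBG2, the 1 tested red blood cell gene, differed by 0.29, 1.52 and 0.54. The part of these shifts in the levels of the 10 genes was not tested.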

How the data were processed

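The authors deposited FPKM per gene, 1 column per library, as non-integer values without counts, so read depth cannot be given and values carry no counting interval. Per the submitters' processing notes, the tools were Cufflinks 2.2.1 and TopHat2 2.1.0 and the build galGal4. Handling of multiple mapping, strand and scaling between libraries is not given in the sources. Values were divided by library factors, each the median over genes of its ratio to the geometric mean (1.16, 1.26 and 1.19 for the Wnt5a-labelled, lnc7831 and lnc3500 libraries, 0.751 and 0.784 for wild type), taken from 10849 genes above 0 in every library. Then log2 was taken after adding a pseudocount of 1. The test was limma (version 3.58.1, R 4.3.3) with its trend option, on the 11031 genes averaging 1 FPKM or more, two-sided, with Benjamini-Hochberg adjustment. The 1 residual degree of freedom comes from wild type, and the single treated libraries are taken to vary likewise. Limma adds 2.70 prior degrees of freedom, which draw on the spread of all tested genes. An SE is thus not the wild-type spread of its gene alone. For FST the wild types differed by 0.016 (log2), yet the SE was 0.36 in each treated library. The limma step was run on simulated data in which all libraries vary alike. That run could not check whether treated libraries vary like wild type.

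The members and lists were chosen with earlier results of these data known. The rule for named genes took the members, pathway list genes at least 2-fold beyond both wild types, and the 3 nearest profiles of the 3 widest-ranging members. Other list and marker genes were chosen after their values were seen. Gene names come from the table, and neighbours from RefSeq (GRCg7b), where 10 of 10 members matched. Alternatives were deposited scaling, upper-quartile scaling, a pseudocount of 0.1, no filter, each wild type left out, and treated libraries as 1 group.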

Additional observations from a re-analysis of the deposited data

How the results depend on the processing

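In every fit run, limma called 0 of the 10 genes. No paired analysis was possible because each treated group holds 1 library, whose title carries no replicate number. As deposited, differences from wild type changed sign for BMP2 (0.50 in the Wnt5a-labelled library, 0.46 in lnc3500 knockdown), BMP4 (0.52, 0.66 and 0.50 in the Wnt5a-labelled, lnc7831 and lnc3500 libraries, 0.56 on average), BMP7 (0.50, 0.50, 0.38 and 0.46), CHRD (0.55 in the Wnt5a-labelled library), INHBA (0.27 in lnc7831 knockdown, 0.020 on average) and NOG (0.34 in lnc3500 knockdown, 0.18 on average). Between treated libraries, BMP7 in lnc7831 knockdown against the Wnt5a-labelled library (0.0017) and FST in lnc3500 knockdown against it (0.0014) also did. Upper-quartile scaling gave -0.038 for the average of BMP2, and a pseudocount of 0.1 gave 0.0066 for CHRD in the Wnt5a-labelled library and 0.28 for NOG in lnc3500 knockdown. The cause was not tested beyond the scaling or pseudocount itself.

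Members at least 2-fold beyond both wild types as deposited were 0 in the Wnt5a-labelled library, 1 in lnc7831 knockdown (FST) and 1 in lnc3500 knockdown (INHBB). In lnc7831 knockdown 10.5% of all tested genes lay that far above both as deposited, and the other shares as deposited were not counted. With 1 wild type left out the members past 2-fold numbered 1 to 4, 0 to 2 and 2 to 4 in that order of libraries. A single wild type makes the mark easier to reach for any gene. The share of all tested genes was not counted in that setting, so these counts cannot be set against a general rate. Without wild-type library 2, NOG, GREM1 and INHBB joined SOSTDC1 in the Wnt5a-labelled library. Without library 1, NOG and GREM1 passed upward in lnc7831 knockdown, and GREM1 upward and INHBA downward in lnc3500 knockdown.

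The count of all genes called by limma depended on the filter. It was 1, 4, 0 and 0 for the 3 treated libraries and their average against wild type, and 5, 0 and 3 for lnc7831 and lnc3500 knockdown against the Wnt5a-labelled library and lnc7831 against lnc3500 knockdown. Without the filter it was 183, 260, 129, 405, 332, 234 and 285 in that order. As deposited it was 0 for the Wnt5a-labelled library. A pseudocount of 0.1 gave 0 in all 7. Upper-quartile scaling gave 1 for lnc3500 knockdown, 28 for the average and 2 for lnc3500 knockdown against the Wnt5a-labelled library. Treated libraries taken as 1 group gave 52. Among settings added after seeing the data, the RMS difference of GREM1 and SCG5 was 0.32 with a pseudocount of 0.1 and 0.37 with none, against 0.17. The ratio of antagonists to ligands without SOSTDC1 was 0.145, 0.344 and 0.291 in the treated libraries, and 0.453 and 0.108 in wild type. Depth is unknown, so how precisely NOG and INHBB were measured at under 1 FPKM cannot be stated.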
